A study of Mus musculus with 2 samples.

Results

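The collagen genes of the newborn mouse pancreas were compared between a pool of Glis3zf/zf mutant RNA and a pool of wild-type RNA. Members were all non-control probes whose RefSeq accession or description symbol leads to a gene symbol of the form Col, number, a, number. This gave 59 probes of 41174 and 38 genes of 17019 named genes. They were grouped as 10 fibrillar genes (types I, II, III, V, XI and XXVII), 8 basement membrane genes (types IV, XV and XVIII) and 20 others. Another 6 collagen symbols of the RefSeq gene table (Col6a3, Col6a4, Col6a5, Col20a1, Col22a1 and Col24a1) had no member probe by this rule.

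Glis3 is a zinc finger transcription factor gene, and the question of the series was its part in pancreatic beta cell development. Whole pancreas was taken at postnatal day 3 from pups homozygous for the mutant allele, which the labels also name Glis3KO, and from wild-type pups, RNA of 2 pups being pooled for each genotype. Neither strain nor sex is stated in the labels. Each of 2 dual-colour arrays received both pools, and the dyes were exchanged between them, so each genotype is 1 sample measured on both arrays. No test between genotypes was possible, the spread given is that between arrays, and nothing measures the spread between pups.

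Collagens are triple-helical proteins of the extracellular matrix, each molecule being built from 3 alpha chains, which come from the same gene or from different genes. Fibrillar collagens form the cables of connective tissue and are made mainly by fibroblasts. In the pancreas, stellate cells are a known source of them. Type IV collagen forms the sheet-like network of basement membranes, which line epithelia, blood vessels and islets, and types XV and XVIII lie in the zone next to it. The remaining collagens decorate fibrils, form beaded filaments or short networks, anchor epithelia or span the cell membrane.

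Promoter letters are shown for 4 collagen genes: Col1a2, Col3a1 and Col5a1 as chains of the main fibril types, and Col16a1 because it was the 1 member past the smaller of the rules of size used below. Each line gives the 150 bases before the annotated start, 5′ to 3′ on the plus strand of GRCm38.p6, from RefSeq. The stretches are chr6:4505468-4505617 for Col1a2, chr1:45311388-45311537 for Col3a1, chr2:27886275-27886424 for Col5a1 and chr4:130047690-130047839 for Col16a1. Capitals mark matches on either strand. The core of the known Glis binding motif was searched as TGGGGGGT. The CCAAT box was searched by those letters. The GC box was searched as GGGCGG. The TATA box was searched as TATAAA.
Col1a2: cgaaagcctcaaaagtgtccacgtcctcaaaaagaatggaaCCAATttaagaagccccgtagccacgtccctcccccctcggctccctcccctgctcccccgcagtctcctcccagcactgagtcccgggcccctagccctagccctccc
Col3a1: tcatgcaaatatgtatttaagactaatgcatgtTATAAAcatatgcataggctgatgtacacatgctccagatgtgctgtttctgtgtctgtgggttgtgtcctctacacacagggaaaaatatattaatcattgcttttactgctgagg
Col5a1: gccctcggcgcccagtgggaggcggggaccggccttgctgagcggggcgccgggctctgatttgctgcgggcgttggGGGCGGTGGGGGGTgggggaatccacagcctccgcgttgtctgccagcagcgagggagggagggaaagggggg
Col16a1: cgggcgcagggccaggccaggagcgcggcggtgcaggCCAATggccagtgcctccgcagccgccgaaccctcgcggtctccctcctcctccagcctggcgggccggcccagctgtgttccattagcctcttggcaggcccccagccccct
RefSeq windows of 300 bases (250 before and 50 after the start) were at hand for 30 of the 38 genes, as 33 windows. The Glis core was in 1 of the 33 (3.03%), that of Col5a1, and in 1.53% of all 32851 windows. In Col5a1 it begins 67 bases before the start, next to a GC box beginning 73 bases before it, and the matches do not overlap. A CCAAT box was in 36.4% of collagen windows and 37.4% of all windows, a TATA box in 15.2% and 13.6%, and a GC box in 63.6% and 35.7%. These matches describe letters, not sites in use, and the ratio of Col5a1, the gene with the Glis core, was close to 0, as given below.

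All members were detected on both arrays, some of them at low signal. By the scanner software's flags, all 59 member probes were well above background in at least 1 genotype on both arrays, and none was saturated. The median spot signal lay between 206.6 and 264.9, the 95th percentile of negative control spots between 57.6 and 72.8, and the mean raw signal of the member genes between 97.8 for Col6a6 and 45522 for Col3a1. Over 16731 detected genes the ratios of the arrays had a Pearson's r of 0.71 and a Spearman's rho of 0.42. Over the 38 collagen genes these were 0.33 and 0.39, which describes genes that share arrays, not replicates. Glis3 itself was read from 1 probe, with ratios of -0.02 and 0.01, and the sources do not place that probe relative to the mutated part, so it does not check the labels. The acinar genes Cpa1, Cel and Prss2, which mark pancreas, were saturated in both pools.

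No collagen gene passed the rule of size used to call a difference. To meet it, the mean of both arrays had to reach 2-fold and either array by itself 1.5-fold, all with 1 sign. It was met by 0 of 38 members and by 0.377% of all detected genes, 0.227% being higher and 0.149% lower in the mutant pool. All ratios are on the log2 scale with the mutant pool over the wild-type pool, so positive values are higher in the mutant pool. A smaller rule, a ratio beyond 0.32 in size with the same sign on both arrays, was met by 1 member, Col16a1, which was higher. That is 2.63% of the members, against 2.86% of all detected genes (1.23% higher and 1.63% lower), so the share is close to the background. The mean ratios ran from -0.23 for Col18a1 to 0.37 for Col6a1, with a median of 0.06 (0.00 over all detected genes). They lay within 0.3 of 0 for 34 of 38 members, 89.5%, against 94.8% of all genes. RNA was taken from whole pancreas, where fewer cells of a type and less RNA per cell cannot be told apart.

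**Figure D1:**
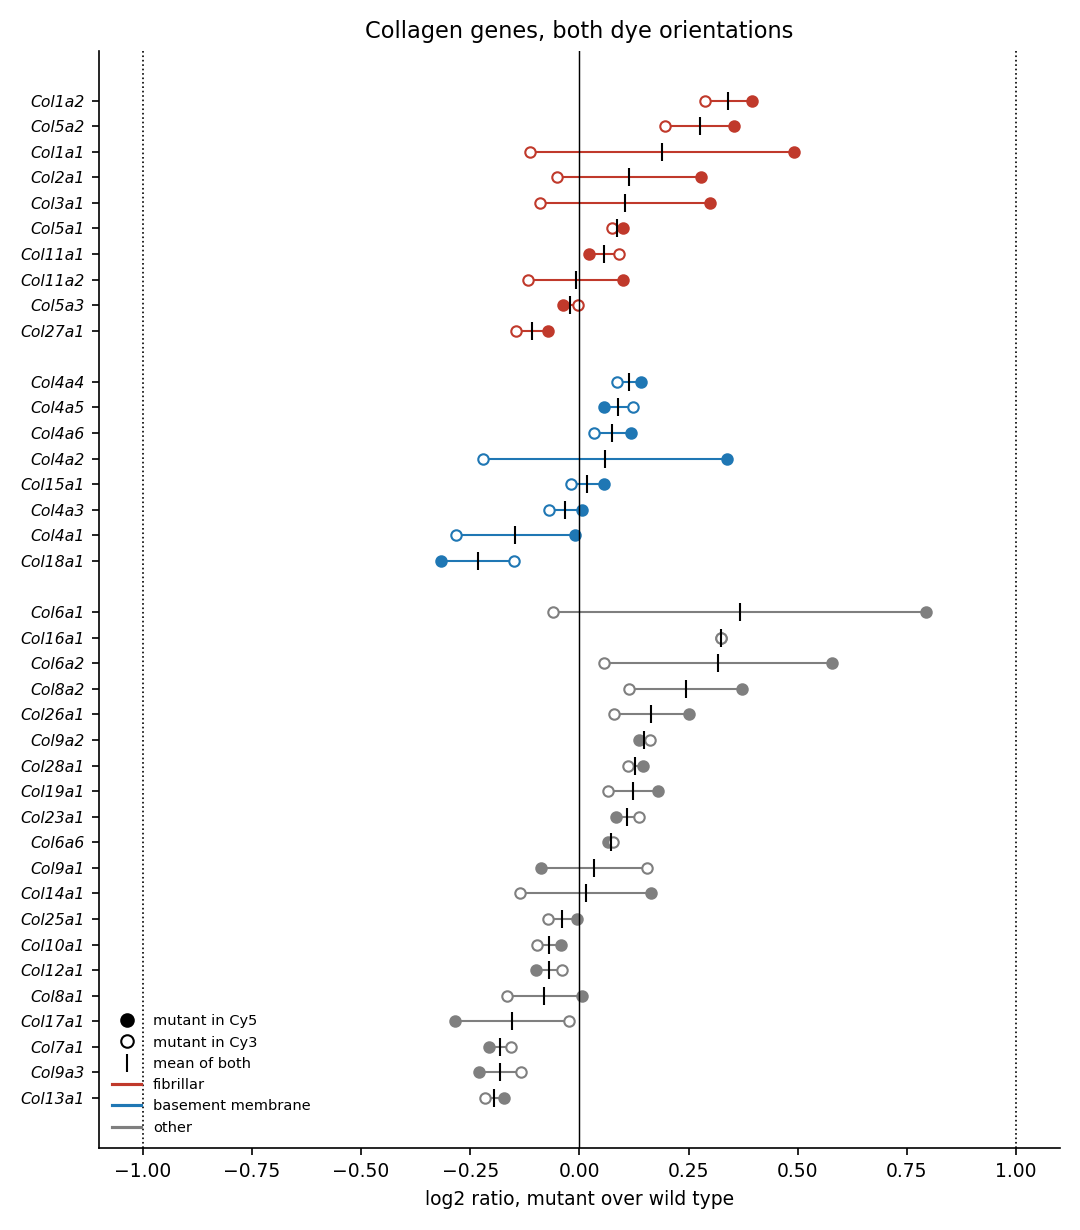
Log2 ratio of mutant over wild type (horizontal axis) for the 38 collagen genes (vertical axis), by family. Filled points are the array with the mutant in Cy5, open points the array with the mutant in Cy3, ticks their mean, and dotted lines mark 2-fold. No mean reaches a dotted line, and the points of Col6a1, Col1a1 and Col4a2 lie on opposite sides of 0.

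The fibrillar genes had a median ratio of 0.10, with means from -0.11 (Col27a1) to 0.34 (Col1a2). Of the 10, 4 were above 0 on both arrays (Col1a2, Col5a2, Col5a1 and Col11a1), 2 were below 0 on both (Col5a3 and Col27a1) and 4 changed sign. These counts read each gene from its brightest probe, and the dimmer probe of Col11a1 was below 0 on both arrays. Over all detected genes, 32.4% were above 0 on both arrays, 30.4% below 0 on both, and 37.1% changed sign. By dye orientation, the fibrillar median was 0.19 (mutant in Cy5) and -0.03 (mutant in Cy3). The 2 dye orientations thus did not give the same sign for this family.

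Type I collagen, the main fibril of connective tissue, is built from the products of Col1a1 and Col1a2. Col1a2 (NM_007743; probe on chromosome 6, 4493505 to 4493564, in the files' coordinates, whose genome build no label or header names) had normalised log2 levels of 13.94 and 13.83 in the mutant pool and 13.55 and 13.54 in the wild type. Both mutant levels were above both wild-type levels. Its ratios were 0.39 and 0.29, a mean of 0.34 or 1.27-fold. The technical SD, the spread of the arrays' distance from their mean over genes of like brightness, was 0.10. Col1a1 (NM_007742), the partner chain, gave another picture. Its brightest probe (chromosome 11, 94772849 to 94772908) had levels of 15.08 and 14.84 in the mutant and 14.59 and 14.95 in the wild type, so the pools overlapped. The arrays gave 0.49 (mutant in Cy5) and -0.11 (mutant in Cy3). A probe about a kilobase away (94771826 to 94771885) gave 1.0 and 0.03, and the dimmest probe (94759051 to 94759110) gave 0.00 and 0.22. The 3 probes of Col1a1 thus had means of 0.19, 0.52 and 0.11, a range of 0.41, and the size of its difference was not settled by these arrays.

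**Figure D2:**
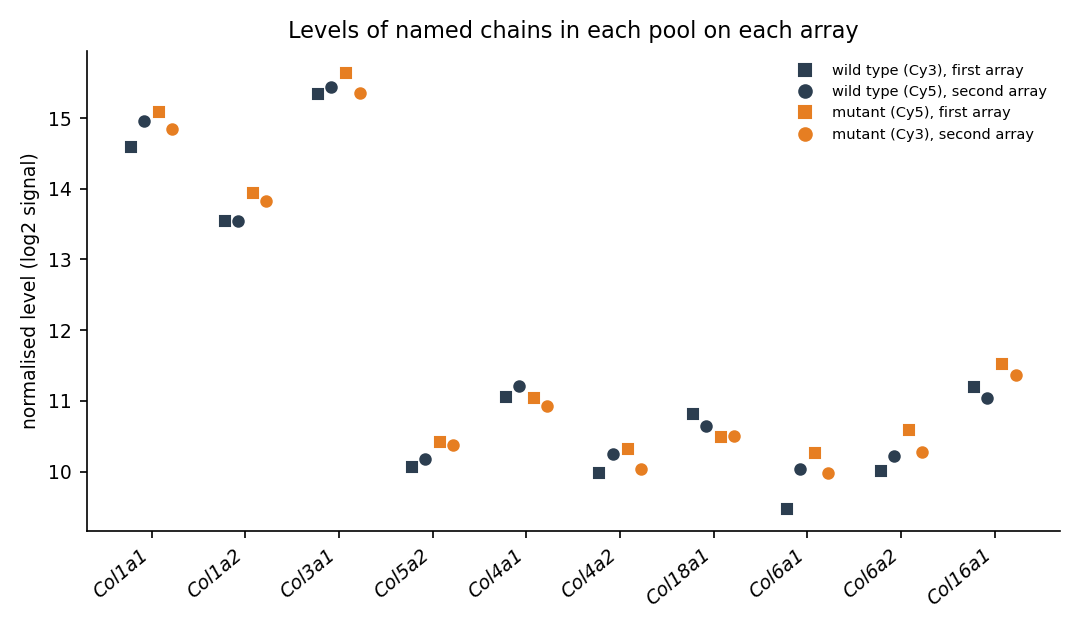
Normalised level (log2 signal, vertical axis) of 10 collagen chains (horizontal axis), in the wild-type pool (dark) and the mutant pool (orange). Squares mark the array where the mutant carried Cy5, circles the one where it carried Cy3. For Col1a2, Col5a2 and Col16a1 both mutant levels lie above both wild-type levels, for Col18a1 both lie below, and for Col1a1, Col3a1, Col4a2 and Col6a1 the pools overlap. Levels of different genes come from different probes and are not comparable.

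Type III collagen, the flexible partner of type I in soft organs, is encoded by Col3a1 alone. Col3a1 (NM_009930; chromosome 1, 45652529 to 45652588) had levels of 15.64 and 15.35 in the mutant and 15.35 and 15.44 in the wild type. The pools overlapped, with ratios of 0.30 and -0.09 and a mean of 0.10. Type V collagen sets the diameter of type I fibrils. Of its chains, Col5a2 (NM_007737; chromosome 1, 45680561 to 45680620) had levels of 10.41 and 10.37 in the mutant and 10.06 and 10.17 in the wild type, ratios of 0.35 and 0.20, and a mean of 0.28 or 1.21-fold. Col5a1 had ratios of 0.10 and 0.07, and Col5a3 of -0.04 and 0.00. Their dimmer probes gave -0.02 and 0.24 for Col5a1 and -0.06 and 0.02 for Col5a3. The mean of Col5a2 was larger than the technical SD of 0.08 at its brightness. For Col5a1 and Col5a3, which are brighter, that SD was 0.10 and the means of their brightest probes were smaller than it. None of the 3 met either rule of size.

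Col2a1 encodes the main fibril of cartilage, and Col11a1 and Col11a2 encode chains of the type XI fibrils that run within it. Col2a1 was bright in these pools, with a mean raw signal of 7580 and ratios of 0.28 and -0.05. Its other probe, which overlaps the first one on the genome, gave 0.31 and -0.03. Col11a1 had ratios of 0.02 and 0.09 and Col11a2 of 0.10 and -0.12. Their dimmer probes gave -0.04 and -0.09 for Col11a1 and -0.03 and -0.04 for Col11a2. The 8 markers of cartilage and bone had a median ratio of 0.02, from -0.11 (Matn3) to 0.16 (Sox9). Their summed normalised signal was 2535 and 2814 in the mutant and 2552 and 2687 in the wild type, and their part in the Col2a1 ratio was not tested. Sp7 and Sox9 gave most of the raw signal of these markers, with 1060 and 698 of the 2556 summed over the mutant pool. Matn1, Ibsp, Matn3 and Hapln1 had only 78, 88, 102 and 106 there, not far above the negative control percentile of 57.6 to 72.8. The sum is thus a weak reading of cartilage RNA. Col27a1, a fibrillar gene of developing cartilage, had ratios of -0.07 and -0.15.

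The basement membrane genes had a median ratio of 0.04, with means from -0.23 (Col18a1) to 0.11 (Col4a4). Of the 8, 3 were above 0 on both arrays (Col4a4, Col4a5 and Col4a6), 2 below 0 on both (Col4a1 and Col18a1) and 3 changed sign. By dye orientation, it was 0.06 (mutant in Cy5) and -0.05 (mutant in Cy3). With arrays centred on their median and no loess it was -0.0034, so the family had no direction that held. All 8 mean ratios were within 0.3 of 0.

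Col4a1 and Col4a2 encode the chains of the common type IV network and lie side by side on chromosome 8. Col4a1 (NM_009931; 10571431 to 10571490) had levels of 11.04 and 10.92 in the mutant and 11.05 and 11.21 in the wild type. Its ratios were -0.01 and -0.28, so a lower level was seen with the mutant in Cy3 and hardly any difference with the mutant in Cy5. Its other probe gave 0.27 and -0.19. Col4a2 (NM_009932; 10821267 to 10821326) had levels of 10.32 and 10.03 in the mutant and 9.98 and 10.25 in the wild type, and ratios of 0.34 and -0.22. Its other probe gave 0.31 and -0.01. On all 4 probes of this gene pair the ratio was lower with the mutant in Cy3 than with the mutant in Cy5, and neither gene had a direction that held on both arrays and both probes.

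The other type IV chains form the networks of kidney glomerulus, lung, eye and ear, and of some epithelia. Col4a5 had ratios of 0.06 and 0.12 and Col4a6 of 0.12 and 0.03. Col4a3 had 0.01 and -0.07. Col4a4, the neighbour of Col4a3, had 0.14 and 0.09 by its brightest probe (NM_007735; chromosome 1, 82781951 to 82782012). A probe described as a RIKEN clone whose symbol is now an older name of Col4a4 (NM_177015; 82777586 to 82777645) gave -0.54 and -0.36, a mean of -0.45. The 2 probes of Col4a4 were thus on opposite sides of 0 on both arrays. The other probe of Col4a3 gave -0.03 and 0.11 and that of Col4a6 gave 0.29 and 0.01.

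Col18a1 encodes the collagen from whose end the angiogenesis inhibitor endostatin is cut. Its mean ratio was the lowest of all members as processed here. Col13a1 was lower with the scanner software's ratio or the deposited table (-0.25 against -0.24), and Col9a3 and Col7a1 (both -0.18, as was Col18a1) were marginally lower with the median over probes. With the mutant in Cy3 alone Col4a1 was the lowest. Col18a1 (NM_009929; chromosome 10, 77154035 to 77154094) had levels of 10.50 and 10.50 in the mutant and 10.81 and 10.65 in the wild type. Its ratios were -0.32 and -0.15, a mean of -0.23 or 1.17-fold lower, and its other probe gave -0.10 and -0.15. It was below 0 on both probes and both arrays, and the mean of the brightest probe was larger than the technical SD of 0.08, yet it met neither rule of size. Col15a1, the related collagen of the basement membrane zone in muscle and capillaries, had ratios of 0.06 and -0.02.

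Endothelial cells and epithelia make basement membrane, and their markers were read beside these genes. Of 10 listed endothelial markers 9 were detected, and their median ratio was -0.30, with 7 below 0 on both arrays and none above 0 on both. Their summed normalised signal was 7640 and 7219 in the mutant and 9494 and 9120 in the wild type. The VEGF receptor genes Flt1 (-0.55) and Kdr (-0.35) and the cadherin gene Cdh5 (-0.35) met the smaller rule. The 5 epithelial markers had a median of -0.03, from -0.25 (Cdh1) to 0.28 (Krt19), and a summed signal of 31507 and 29242 in the mutant and 33741 and 30344 in the wild type. Krt18 and Krt8 gave 12008.9 and 10650.5 of the epithelial raw signal of 28390.7 in the mutant pool, so they carry most of that sum. The part of endothelial and epithelial cells in the ratios of the basement membrane collagens was not tested.

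The other collagens had a median ratio of 0.05, with means from -0.19 (Col13a1) to 0.37 (Col6a1). Of the 20, 9 were above 0 on both arrays, 7 below 0 on both and 4 changed sign. By dye orientation, the median was 0.07 (mutant in Cy5) and 0.02 (mutant in Cy3). It was 0.14 with the scanner software's ratio or the deposited table and 0.12 with a background offset of 0, so its size depends on the processing.

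Type VI collagen forms beaded filaments around cells in muscle and connective tissue, from chains encoded by Col6a1, Col6a2 and further genes. Col6a1 (NM_009933; chromosome 10, 76810422 to 76810481) had levels of 10.27 and 9.98 in the mutant and 9.47 and 10.04 in the wild type. The arrays gave 0.79 (mutant in Cy5) and -0.06 (mutant in Cy3). This gap between the arrays was the largest among the genes' brightest probes, and the mean of 0.37, the highest of all members, rests on 1 array. Col6a2 (NM_146007; chromosome 10, 76697653 to 76697712), its neighbour, had levels of 10.59 and 10.27 in the mutant and 10.01 and 10.21 in the wild type. Both mutant levels were above both wild-type levels, but its ratios of 0.58 and 0.06 differed in the same way. Col6a6 was near the lower end of the signal range and had 0.07 and 0.08. The chain encoded by Col6a3 was read only by 4 probes that name it in their description without a symbol. They are no members and were looked at after their values were known, and their means lay between 0.00 and 0.04. They belong to 17 probes described as a collagen chain without a member symbol, whose means ran from -0.05 to 0.24. Among the 17 is a probe of type XXIV, with ratios of 0.09 and 0.21. Another, described as type I, alpha 2, the chain of Col1a2, gave 0.10 and -0.11 at a low mean raw signal of 82.6.

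The fibril-associated collagens bind to the surface of fibrils. Among them Col16a1 (NM_028266; chromosome 4, 129126215 to 129126274) had levels of 11.51 and 11.36 in the mutant and 11.19 and 11.04 in the wild type, so both mutant levels were above both wild-type levels. Its ratios were 0.32 and 0.32, and those of its dimmer probe (129081571 to 129082292, a span longer than a probe) were -0.01 and -0.09. The threshold of the smaller rule is 0.32, so Col16a1 lies just inside it. Col1a2, at 0.29 on its weaker array, and Col5a2, at 0.20, are the next members outside.

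The rest of the fibril-associated genes had smaller mean ratios. Col9a1, Col9a2 and Col9a3 encode the chains of type IX, which coats the fibrils of cartilage. Col9a2 had ratios of 0.14 and 0.16, Col9a3 of -0.23 and -0.13 and Col9a1, close to the lower end of the signal range, of -0.09 and 0.15. The chains of 1 molecule thus gave ratios on both sides of 0. Col14a1, whose product binds type I fibrils, had 0.17 and -0.14, Col12a1 -0.10 and -0.04 and Col19a1 0.18 and 0.06.

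Among the remaining collagens, Col8a2, which encodes a chain of a short network made by endothelium and cornea, had ratios of 0.37 and 0.11 and its partner Col8a1 0.01 and -0.17. Col10a1, the short-chain collagen of hypertrophic cartilage, had -0.04 and -0.10. Col7a1, the anchoring fibril collagen under stratified epithelia, had -0.21 and -0.16. Of the 4 transmembrane collagens, 3 were below 0 on both arrays: Col13a1, found at muscle and its nerve endings, with -0.17 and -0.22, Col17a1, a part of hemidesmosomes, with -0.28 and -0.02, and Col25a1 with -0.01 and -0.07. The exception was Col23a1 with 0.08 and 0.14. By their dimmer probes, only Col13a1 was below 0 on both arrays (-0.05 and -0.05). Those of Col17a1 (-0.04 and 0.03), Col25a1 (-0.14 and 0.10) and Col23a1 (0.02 and -0.01) changed sign. Over all detected genes, 30.4% were below 0 on both arrays. Col26a1 had 0.25 and 0.08, and Col28a1, a collagen of peripheral nerve, 0.15 and 0.11.

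**Figure D3:**
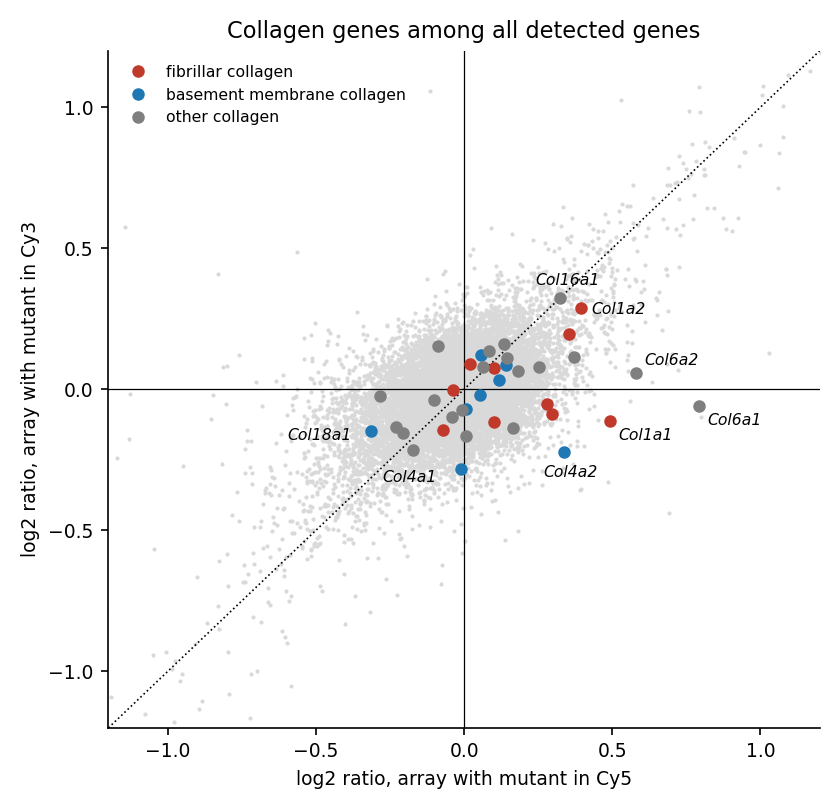
Log2 ratio with the mutant in Cy5 (horizontal axis) against that with the mutant in Cy3 (vertical axis), for all detected genes (light grey) and the collagen genes by family, with genes beyond 1.2 on either axis not shown. The dotted line marks equal ratios. Col16a1 lies on the line, Col1a2 near it, and Col6a1, Col6a2, Col1a1 and Col4a2 to its right.

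Many collagen ratios differed between the arrays in 1 direction. The ratio was higher with the mutant in Cy5 than with the mutant in Cy3 for 26 of 38 members, 68.4%, against 48.7% of all detected genes. Bright members showed it most. Of the 16 members in the 2 brightest of 10 intensity classes, 13 had the higher ratio with the mutant in Cy5, 81.2%, against 46.6% of the 3346 genes of those classes. The arrays stood a median of 0.08 from their mean for these 16 members and 0.06 for all genes of the classes. Among the 16 it was 0.30 for Col1a1, 0.28 for Col4a2 and 0.26 for Col6a2. For Col6a1, which lies in the next class down and is not among the 16, it was 0.43. Even in the brightest class, 90% of genes stood within 0.16 of the mean (genes past the 2-fold rule left out). With 2 arrays, an effect of the dye and one of the array cannot be told apart.

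Of the 20 members with several detected probes, 17 had probe means within 0.2 of each other. The other 3, Col4a4, Col1a1 and Col16a1, differed by more than 0.3, with ranges of 0.57, 0.41 and 0.37. For most of the 17, the second probe was dim, with a mean raw signal as low as 79 for Col17a1 and 90 for Col14a1. The background offset shrinks the ratios of dim spots, so closeness of probe means is a weak check there. Collagen genes that are neighbours in the RefSeq gene order of GRCm38.p6 were also set side by side. The mean ratios of Col4a5 and Col4a6 differed by 0.01, those of Col6a1 and Col6a2 by 0.05, those of Col9a1 and Col19a1 by 0.09, those of Col4a3 and Col4a4 by 0.15, those of Col3a1 and Col5a2 by 0.17 and those of Col4a1 and Col4a2 by 0.20. The sign of the difference was the same on both arrays for Col3a1 with Col5a2, Col4a3 with Col4a4 and Col4a1 with Col4a2.

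Genes that build, bind and remove collagen were described from lists. Of 19 genes for chain modification and folding in the endoplasmic reticulum, none met either rule of size, and the median was 0.11. P3h3, a member of the prolyl 3-hydroxylase family, had the highest mean ratio at 0.32, and Colgalt2, a collagen galactosyltransferase, the lowest at -0.20. For propeptide cleavage and cross-linking the median was 0.07 over 11 detected genes of 13, with no gene past either rule. Loxl1, a cross-linking oxidase of the lysyl oxidase family, had the highest mean at 0.40, with 0.53 and 0.27 on the arrays, and the procollagen C-proteinase gene Bmp1 the lowest at -0.09.

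The 16 fibril partners had a median of 0.13, and 9 were above 0 and 2 below 0 on both arrays. Fn1, the fibronectin gene, had 0.31 and Fbn1, the fibrillin gene of microfibrils, -0.19, and no member met either rule. The 12 detected basement membrane partners of 15 had a median of 0.05. Lama4, the laminin chain of blood vessels, had -0.49 and -0.35 and was the 1 member past the smaller rule. The 7 detected collagen receptors had a median of 0.04, from -0.26 for Ddr1, a collagen-binding receptor tyrosine kinase, to 0.13 for Itga2. The 15 detected genes of collagen degradation of 16 had a median of 0.00. That list mixes proteases with protease inhibitors, so its median does not read removal alone. Mmp2, a gelatinase made by connective tissue cells, had 0.68 and 0.43, a mean of 1.47-fold, and was the 1 member past the smaller rule. Its mean ratio was thus above that of every collagen gene.

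**Figure D4:**
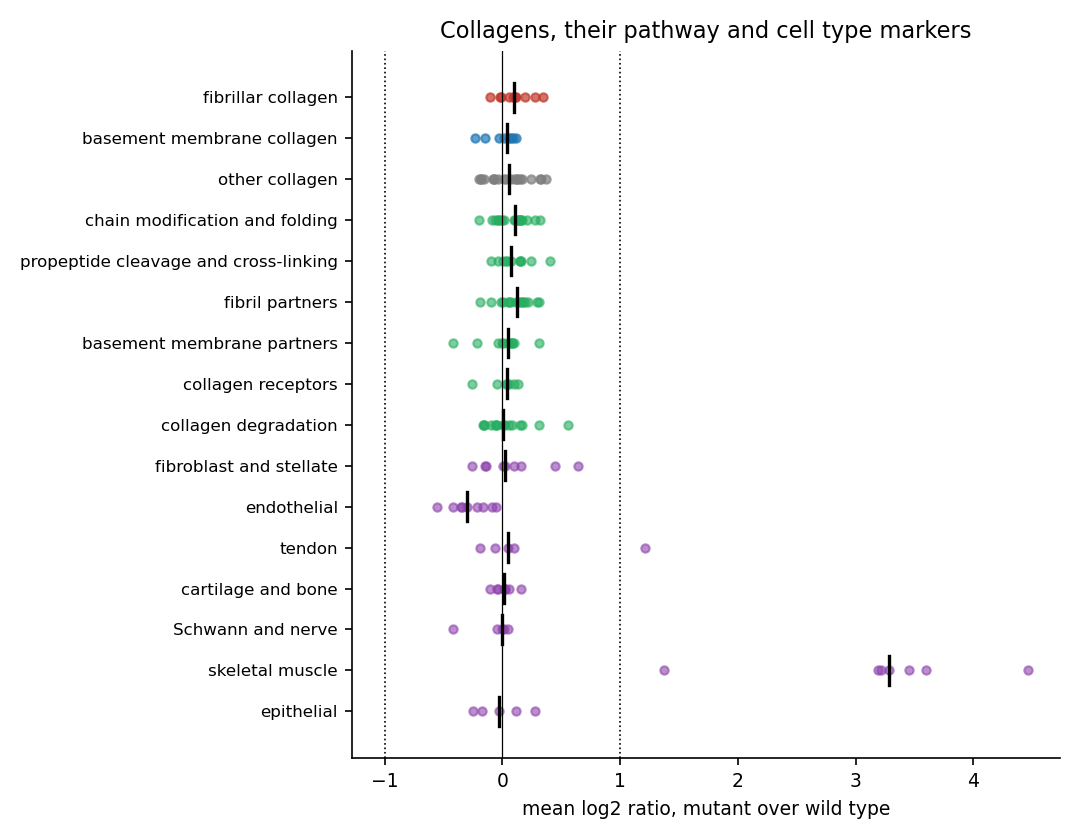
Mean log2 ratio of mutant over wild type (horizontal axis) of the collagen families, the pathway lists and the cell type marker lists (vertical axis). Each point is a gene, black bars are medians and dotted lines mark 2-fold. The collagen and pathway medians lie between 0.00 and 0.13, the endothelial median at -0.30 and the skeletal muscle median at 3.29.

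Markers of cells that make collagen were measured on the same arrays. The 9 fibroblast and stellate markers had a median of 0.03, with 4 above 0 and 3 below 0 on both arrays. Des (0.64), which striated muscle also expresses, and Pdgfra (0.45) met the smaller rule, and Dpt had the lowest mean at -0.26. Their summed normalised signal was 32468 and 28159 in the mutant and 28969 and 30900 in the wild type. The pools overlapped, but Vim, with ratios of 0.23 and -0.18, gave most of the signal. In raw signal it was 18177.5 of the 28660 summed over the mutant pool. The sum is thus mainly a reading of Vim. The 5 tendon markers had a median of 0.05, and Scx, a transcription factor of tendon progenitors, passed the 2-fold rule at 2.31-fold, while Tnc had the lowest mean at -0.19. The 5 detected Schwann and nerve markers of 6 had a median of 0.00, with S100b at -0.42.

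Skeletal muscle markers were much higher in the mutant pool. All 7 detected of 8 passed the 2-fold rule, from 2.59-fold for Ckm to 22-fold for Myl1, and their summed signal was 21871 and 22247 in the mutant and 1856 and 2189 in the wild type. The part of muscle, tendon or fibroblast RNA in the collagen ratios was not tested.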

How the data were processed

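Each of the 2 arrays carried the mutant and the wild-type pool in opposite dyes, a technical dye swap, so no test was made. Per the file headers, the deposited scanner files hold mean spot and local background intensity values on a linear scale, processed intensity values that the software had background-subtracted and dye-normalised, a log10 ratio of Cy5 over Cy3 and a p-value from the software's single-array error model, which was not used. The labels name Feature Extraction 7.5 and Rosetta Resolver 6.0, the headers module version 8.5.1.1. The deposited series table holds log2 values equal to the software's mutant over wild-type ratio within 0.002 for 99.98% or more of probes, each column with a median of 0.

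Intensities were corrected by normexp (offset 50, which shrinks the ratios of dim spots) and normalised by loess within arrays (control spots at weight 0) with limma 3.58.1 in R 4.3.3. Outlier spots (15 and 53) were left out, spots of a probe averaged and both arrays turned to mutant over wild type. Printed levels were also scaled between arrays by Aquantile. Genes were named through the RefSeq table of GRCm38.p6 (22072 probes by their accession, 135 by another, 657 by symbol, 533 by an older symbol, 229 by gene ID, 17548 unnamed) and read from the brightest unsaturated probe. Detected means well above background in at least 1 genotype on both arrays. The technical SD is that of the arrays' distance from their mean, over genes not past the 2-fold rule, in 10 intensity classes. Precision is limited by there being 2 arrays. The calling was tested on simulated data.

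Members and lists were chosen with earlier results of these data known. Values were given for genes past either rule, the chains of types I, III, IV, V, VI, XV and XVIII, the extremes of each family and genes whose probes differ by over 0.3; the other members' ratios are given so that all 38 are accounted for. From other lists, genes past either rule or else the highest and lowest were named. Alternatives were the software's ratio, the deposited table, offset 0, median centring, no filter, the median over probes, each array alone and type IV alone. Python 3.11.15, numpy 2.4.6, pandas 2.3.3 and matplotlib 3.10.9 did the later steps.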

Additional observations from a re-analysis of the deposited data

How the results depend on the processing

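The count of 0 collagen genes past the 2-fold rule held under every alternative run, single arrays included, where the rule reads 1 array. It reads each gene from its brightest probe or the median over probes. A dimmer probe of Col1a1 had a ratio of 1.003 with the mutant in Cy5, just past 2-fold on that array, and 0.03 with the mutant in Cy3. With median centring or the median over probes, 0 members met the smaller rule instead of Col16a1, and with 1 array alone it was 1 to 8. The 8 were those with the mutant in Cy5 alone: Col16a1, Col1a1, Col1a2, Col4a2, Col5a2, Col6a1, Col6a2 and Col8a2. The share of 2.86% of all detected genes holds for both arrays together. No such share is given for 1 array alone, so these 8 cannot be set against a background. The median of the other collagens was 0.14 with the software's ratio or the deposited table and 0.12 with offset 0, against 0.05, and the cause was not tested. The basement membrane median lay between -0.045 and 0.056 on single arrays, and the fibrillar median between -0.03 and 0.19. Under the same 3 settings 44, 44 and 42 of all genes were lower by the 2-fold rule, against 25. Of the 22 members with a mean ratio of at least 0.1 in size, 4 changed sign with the mutant in Cy3 alone. With the median over probes 1, Col4a4, changed sign, and none did under the other 6 alternatives. Dropping the filter could not change any member, since all 59 member probes were detected. The deposited table repeats the software's ratio, so neither of these settings is a separate check. No paired analysis was possible because each genotype is 1 pooled sample.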
